A study of Mus musculus with 5 samples.

Results

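The coat and neck of caveolae are built by 7 genes whose reads were compared across 5 RNA sequencing libraries of macrophages sorted from the mouse aorta. They are the caveolin genes Cav1 and Cav2, the cavin genes Cavin1, Cavin2 and Cavin3, and the neck genes Ehd2 and Pacsin2. The list was given by name, as known parts of the caveola, and all 7 genes were found among the 41388 Ensembl gene IDs of the files. Its members were selected on their role in caveolae with the counts and CPM differences between these same libraries already known. The differences between the groups given for these 7 genes are therefore descriptions: no p-value is given for them, and counts of calls among them are listed without being read as evidence.

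The 3 adventitia libraries came from ApoE-/- mice on a C57BL/6 background kept for 28 weeks on high fat food, with 6 such animals named. Their cells were digested out of the adventitia of the entire aorta, abdominal part included, and sorted as live CD64+ cells. The 2 intima libraries were each made from 5 pooled C57BL/6 mice, for which no modified allele and no diet is named. Their cells were digested out of thoracic aortas stripped of adventitia, and were sorted as live CD64+ CD11c+ MHC II+ cells. Layer, genotype, diet, aortic segment and gate all changed together and cannot be told apart. The labels give neither age nor sex, and do not say how the 6 ApoE-/- mice were divided over the 3 libraries, so the spread between those libraries may be partly technical.

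Caveolae are small flask-shaped pits of the plasma membrane that are dense in endothelial cells, smooth muscle cells, adipocytes and fibroblasts. Caveolins are hairpin proteins inserted into the inner leaflet, and cavins are soluble proteins that wrap around them and stabilise the curved coat. EHD2, an ATPase, and PACSIN2, an F-BAR protein, bind the neck of the pit. In most cells caveolae are lost without caveolin 1 or cavin 1, while caveolin 2 and the other cavins adjust the shape, number or stability of the pits. Caveolae buffer membrane tension and take part in lipid handling and in signalling by endothelial nitric oxide synthase.

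Counted reads numbered 3941381, 10076142 and 10054377 in adventitia libraries, against 14970204 and 20806925 in intima libraries. Apoe, the gene altered in the ApoE-/- mice, was at 10.8 to 21.1 CPM (reads scaled to the library total) in adventitia libraries, against 4741 and 4209 CPM in the intima libraries. All 16 listed macrophage genes reached 10 CPM in each of the 5 libraries, with summed levels of 28771 to 36098 CPM in adventitia libraries, against 31142 and 23892 CPM in intima libraries. Across the 13408 genes tested, 90 were called at an adjusted p under 0.05 in edgeR's quasi-likelihood test, 70 lower and 20 higher in the adventitia. By comparison, that split was 46 lower and 29 higher with upper-quartile scaling, and 59 lower and 34 higher with library size alone. Over all tested genes the log2 difference, adventitia minus intima as everywhere below, had a median of -0.14 with TMM scaling and of 0.35 with upper-quartile scaling.

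Cav1 encodes caveolin 1, the principal coat protein of caveolae outside striated muscle. It had 10, 1 and 4 reads in the adventitia libraries, against 4555 and 5801 reads in the intima libraries. These reads correspond to 2.54, 0.0992 and 0.398 CPM in the adventitia and to 304 and 279 CPM in the intima. The exact 95% intervals of the adventitia values run from 1.22 to 4.67, from 0.00251 to 0.553 and from 0.108 to 1.02 CPM, and cover counting error only. Cav1 was thus close to the limit of detection in the adventitia and abundant at nearly the same level in both intima libraries, with no overlap between the groups. Pooled over libraries, its read rate was 465-fold lower in the adventitia, with a counting interval of 282 to 830. The mean was 1.011 ± 1.33 CPM over adventitia libraries, against 292 ± 18.0 over intima libraries (± SD, n = 3 and 2). The fitted log2 difference was -8.73 (SE 0.98), the fourth most negative of the 13408 tested genes. In bulk libraries fewer expressing cells and less RNA per cell cannot be told apart.

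Cav2 encodes caveolin 2, which reaches the cell surface in complex with caveolin 1. In contrast to Cav1 it was well detected in every library. It had 106, 674 and 952 reads in the adventitia libraries, against 1973 and 4837 reads in the intima libraries. Its level was 26.9, 66.9 and 94.7 CPM in adventitia libraries, against 132 and 232 CPM in intima libraries. The ranges of the groups did not overlap, but the distance between the highest adventitia and the lower intima library was small beside the spread within each group. The mean was 62.8 ± 34.1 CPM over adventitia libraries, against 182 ± 71.2 over intima libraries (± SD, n = 3 and 2), and the fitted log2 difference was -1.71 (SE 0.60).

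Cavin1 encodes cavin 1, the cavin needed for coat assembly in all tissues. Its level was 48.5, 14.0 and 34.9 CPM in adventitia libraries, from 191, 141 and 351 reads. It was at 125 and 557 CPM in the intima libraries, from 1875 and 11599 reads. The groups did not overlap, yet the intima libraries stood 4.45-fold apart from each other. The mean was 32.5 ± 17.4 CPM over adventitia libraries, against 341 ± 306 over intima libraries (± SD, n = 3 and 2), and the fitted log2 difference was -3.60 (SE 0.67).

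Cavin2 encodes cavin 2, which binds phosphatidylserine and promotes membrane tubulation. Its pattern was close to that of Cav1, with 6, 3 and 8 reads in the adventitia libraries against 933 and 1640 reads in the intima libraries. That is 1.52, 0.298 and 0.796 CPM in adventitia libraries, against 62.3 and 78.8 CPM in intima libraries, with no overlap. The pooled read rate was 102-fold lower in the adventitia (counting interval 63.5 to 175), and the fitted log2 difference was -6.65 (SE 1.03, n = 3 and 2). The mean was 0.872 ± 0.616 CPM over adventitia libraries, against 70.6 ± 11.7 over intima libraries (± SD).

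The stretches before the transcription starts of 4 coat genes are shown because neighbouring or related genes differ in whether they stayed detectable in the adventitia: Cav2 and Cavin1 did, Cav1 and Cavin2 were near the limit of detection. Each is the 250 bases upstream of the first RefSeq start (GRCm38.p6), 5′ to 3′ on the gene's strand, with capitals for matches to the motifs searched on both strands.
Cav1, chr6:17306085-17306334, plus strand: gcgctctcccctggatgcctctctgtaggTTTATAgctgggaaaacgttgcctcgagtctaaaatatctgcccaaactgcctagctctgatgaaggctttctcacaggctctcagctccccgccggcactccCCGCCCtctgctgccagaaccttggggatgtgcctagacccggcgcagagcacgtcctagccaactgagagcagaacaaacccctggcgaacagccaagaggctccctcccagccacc
Cav2, chr6:17280935-17281184, plus strand: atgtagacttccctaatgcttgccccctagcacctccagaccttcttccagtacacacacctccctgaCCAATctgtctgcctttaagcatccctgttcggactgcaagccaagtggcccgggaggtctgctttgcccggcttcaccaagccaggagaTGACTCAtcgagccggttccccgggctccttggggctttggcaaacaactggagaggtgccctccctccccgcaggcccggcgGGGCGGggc
Cavin1, chr11:100970618-100970867, minus strand: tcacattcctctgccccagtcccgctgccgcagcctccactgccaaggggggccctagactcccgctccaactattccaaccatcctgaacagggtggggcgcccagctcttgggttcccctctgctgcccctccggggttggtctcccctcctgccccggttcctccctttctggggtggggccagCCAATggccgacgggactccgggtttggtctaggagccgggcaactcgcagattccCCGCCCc
Cavin2, chr1:51288876-51289125, plus strand: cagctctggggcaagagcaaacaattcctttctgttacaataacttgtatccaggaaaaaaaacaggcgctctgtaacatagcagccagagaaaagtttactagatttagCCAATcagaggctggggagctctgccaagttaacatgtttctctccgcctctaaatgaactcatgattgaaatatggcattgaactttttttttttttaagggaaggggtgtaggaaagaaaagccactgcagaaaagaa
The AP-1 motif TGANTCA occurs in 6.75% of 32851 such windows of 27025 genes. The GC box GGGCGG occurs in 32.7% of them. The box spelled CCAAT occurs in 33.8% of them, and the TATA box TATAAA in 12.4%. No matches shown overlap. Cav1 held a GC box and, near the far end of the window and on the opposite strand, a TATA box, and Cav2 held an AP-1 motif, a CCAAT box and a GC box. Cavin1 held a CCAAT box and a GC box, and Cavin2 a CCAAT box alone. The share of G and C was 59.6% for Cav1, 62.0% for Cav2, 67.6% for Cavin1 and 40.4% for Cavin2, where the median window had 52.4%. These are matches of letters and do not show binding. The Cavin1 window lies within the gene as counted here, which spans 100956733 to 100970887. By that annotation it is not upstream of the gene.

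Cavin3 encodes cavin 3, a partner of cavin 1 first described as a protein kinase C substrate. It was scarce throughout, at 1.78, 2.58 and 0.497 CPM in adventitia libraries, against 0.802 and 7.64 CPM in intima libraries. The intima libraries differed 9.53-fold, and the lower of them lay inside the adventitia range. The fitted log2 difference was -1.57 with an SE of 1.56 (n = 3 and 2).

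**Figure D1:**
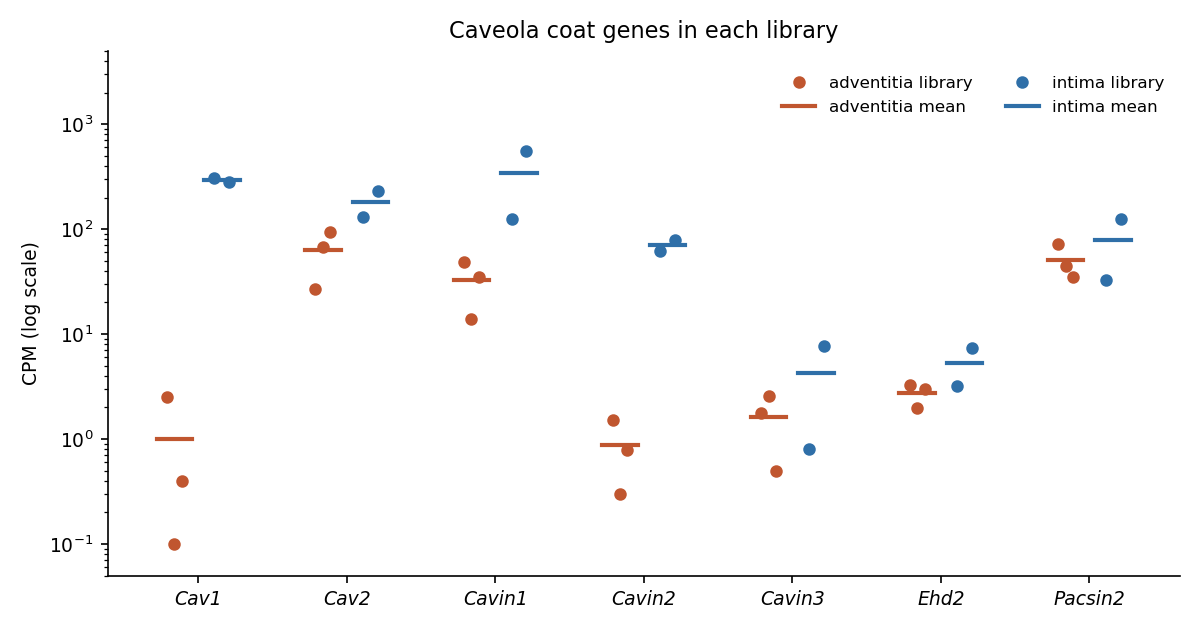
CPM (log axis) of the 7 coat and neck genes in each library, adventitia left and intima right of each gene, with points for libraries and bars for group means. Cav1 and Cavin2 sit at or below 2.54 CPM in the adventitia and at 62.3 CPM or more in the intima, while Cavin3, Ehd2 and Pacsin2 overlap between the groups.

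The neck genes overlapped between the groups. Ehd2 encodes the ATPase that forms rings at the caveola neck and limits the mobility of the pit. It was at 3.30, 1.98 and 2.98 CPM in adventitia libraries, against 3.21 and 7.40 CPM in intima libraries, so the lower intima library fell within the adventitia range (difference -1.16 on the log2 scale, SE 1.51, n = 3 and 2). Pacsin2 encodes a membrane-bending protein, also called syndapin 2, that acts at caveolae and in clathrin-dependent uptake. It was at 72.6, 44.9 and 34.7 CPM in adventitia libraries, against 32.7 and 126 CPM in intima libraries. The intima libraries therefore bracketed the adventitia ones, and the log2 difference was -0.86 (SE 0.67, n = 3 and 2). Without intima replicate 2 the differences of Pacsin2 and Cavin3 turned to 0.20 and 0.58.

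All 7 genes passed the filter on low counts, Cav1 and Cavin2 only through their reads in the intima libraries. All 7 fitted differences were negative with TMM, upper-quartile, RLE and library-size scaling. Without overlap between the groups were 4 of the 7 genes, Cav1, Cav2, Cavin1 and Cavin2, each lower in the adventitia, where 14.1% of all tested genes did the same, 26.4% were separate in the other direction and 40.5% in either. Called in the fit over all genes were 3 of the 7, Cav1, Cavin1 and Cavin2, against 0.522% of all tested genes called lower in the adventitia. Leaving out any 1 of the adventitia libraries left Cav1 as the only called gene of the 7. As the list was chosen with this contrast known, nothing is read from these counts or from how they changed. The median log2 difference was -1.71 over the 7 genes and -0.14 over all tested genes.

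**Figure D2:**
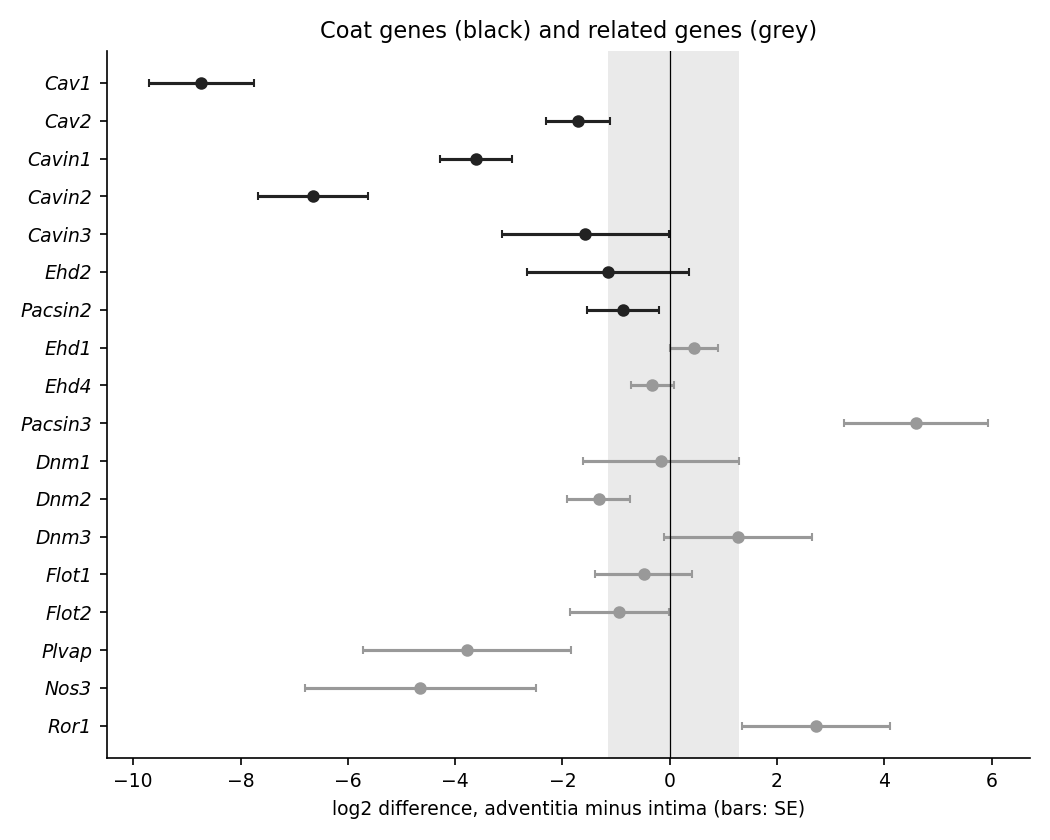
Log2 differences, adventitia minus intima, for the 7 coat and neck genes (black) and the 11 tested related genes (grey), with bars for the SE and a grey band for the middle 50% of all 13408 tested genes, from -1.14 to 1.29. Cav1 (-8.73), Cavin2 (-6.65) and Cavin1 (-3.60) lie farthest to the left among the coat genes.

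Levels can be set roughly against each other between genes once divided by gene length, as RPKM (CPM per kilobase of gene length). That length is the same in every library and does not follow which transcript was expressed. Among the caveolins, Cav2 made up 81.5%, 98.6% and 99.6% of the summed Cav1, Cav2 and Cav3 RPKM in the adventitia libraries and 30.9% and 46.3% in the intima libraries. The ratio of Cav2 to Cav1 RPKM was 10.9, 696 and 246 in the adventitia libraries and 0.447 and 0.861 in the intima libraries. Cav1 thus exceeded Cav2 per length in both intima libraries and was a small minority of caveolin RNA in all adventitia libraries. The 11.1% share of Cav3, the muscle caveolin, in adventitia replicate 1 rests on 5 reads.

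Among the cavins, Cavin1 was the most abundant per length in every library, at 84.6%, 59.2% and 91.2% of the cavin RPKM in the adventitia and 62.2% and 82.4% in the intima. Cavin2 took 3.12%, 1.48% and 2.44% of cavin RPKM in the adventitia libraries and 36.3% and 13.7% in the intima libraries. The ratio of Cavin1 to Cavin2 RPKM accordingly ran from 27.1 to 40.0 in the adventitia, and was 1.71 and 6.02 in the intima. Cavin4, the muscle cavin, had no more than 4 reads in any library.

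Summed over the 7 genes, the level was 43.8, 38.5 and 48.5 RPKM in the adventitia libraries and 193 and 373 RPKM in the intima libraries. The make-up of that sum also differed. In the adventitia Cav2, Cavin1 and Pacsin2 together supplied most of it, with Pacsin2 at 42.6%, 30.0% and 18.4%, whereas Pacsin2 supplied 4.36% and 8.69% in the intima. Cav1 led in intima replicate 1 with 45.8% of the sum, and Cavin1 led in intima replicate 2 with 41.7%. By RPKM, Cav1 ranked above 49.9%, 0.746% and 17.8% of genes with a read in the adventitia libraries, and above 96.1% and 95.6% of them in the intima libraries. Cav2 ranked above 81.8%, 91.4% and 93.5% of genes with a read in the adventitia, and above 92.3% and 94.8% in the intima. Genes with a read numbered 23289, 25212 and 25738 in the adventitia libraries and 17489 and 16374 in the intima libraries. These percentages therefore have unlike bases between the groups and hold within a library only.

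**Figure D3:**
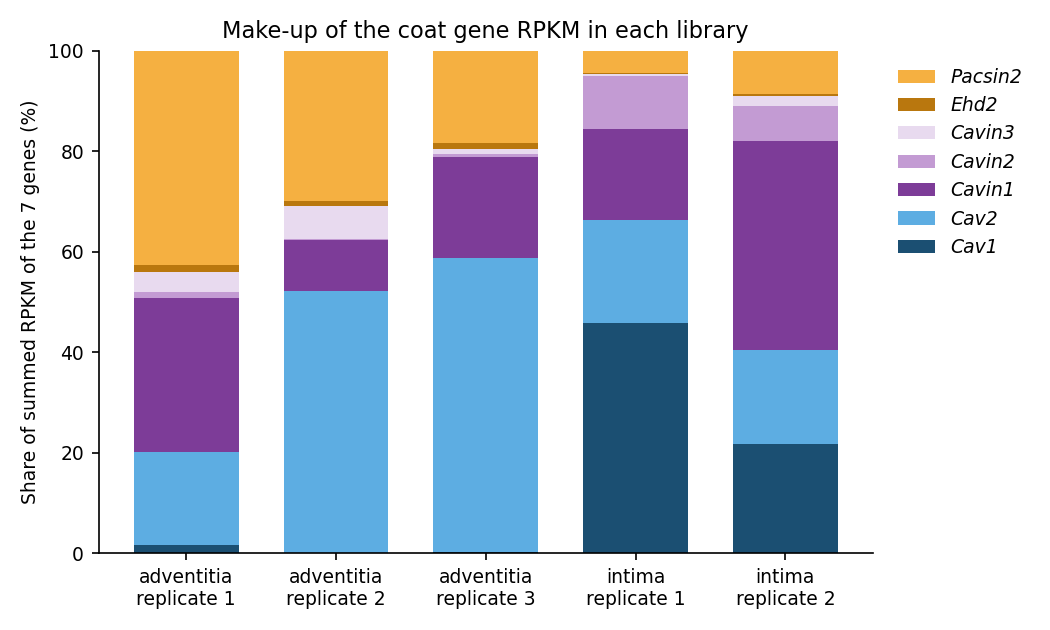
Share (%) of each gene in the summed RPKM of the 7 coat and neck genes, by library. Cav1 takes 1.68% or less in the adventitia libraries and 45.8% and 21.7% in the intima libraries, and Pacsin2 takes 18.4% or more in the adventitia libraries and 8.69% or less in the intima libraries.

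The intima libraries agreed on some of the genes and not on others. Intima replicate 2 over intima replicate 1 gave a CPM ratio of 0.916 for Cav1, 1.26 for Cavin2, 1.76 for Cav2, 2.31 for Ehd2, 3.86 for Pacsin2, 4.45 for Cavin1 and 9.53 for Cavin3. For comparison, the higher intima library exceeded the lower by a median of 2.29-fold over 8560 genes with at least 10 CPM in 1 of them and a read in both, with quartiles of 1.47 and 6.04. Cav1 and Cavin2, the genes with the largest differences between the groups, were among these 7 those on which the intima libraries differed least. In the adventitia the highest library exceeded the lowest 25.6-fold for Cav1, where 1 library had a single read, and 1.66-fold to 5.19-fold for the other 6 genes.

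Other members of the same protein families, and proteins of caveolae outside the coat, were listed as relatives. Of 15 listed, 11 were tested and 0 were called in edgeR in either direction, against 0.671% of all tested genes; their median log2 difference was -0.33. At an unadjusted p under 0.05, 2 of the 11 passed, Dnm2 lower and Pacsin3 higher, where 22.4% of all tested genes did, and DESeq2 and limma voom called 0. Ehd4, a neck ATPase related to Ehd2, was the most abundant relative, at 323, 347 and 279 CPM in adventitia libraries, against 353 and 316 CPM in intima libraries (difference -0.33 on the log2 scale, SE 0.40; edgeR adjusted p = 0.696). Ehd4 and Ehd1 supplied nearly all EHD RNA per length, and Ehd2 no more than 1.28% of it in any library. Pacsin2 held 96.1% or more of the pacsin RPKM in every library.

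Among the relatives, Nos3, which encodes endothelial nitric oxide synthase, was at 1.27, 0.0992 and 0.597 CPM in adventitia libraries, against 0.0668 and 28.1 CPM in intima libraries, so its 585 reads in intima replicate 2 faced a single read in intima replicate 1. Plvap, which encodes the protein of the diaphragm that closes endothelial caveolae, was at 1.015, 0.397 and 0 CPM in adventitia libraries, against 9.22 and 0.288 CPM in intima libraries. The intima libraries thus split in opposite ways on Nos3 and Plvap, and neither gene was called (adjusted p = 0.228 and 0.275 in edgeR). These genes were singled out after their values were seen.

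Genes of proteins that reside in or bind caveolae in other cells had a median log2 difference of -0.78. None of 16 tested out of 18 listed was called in edgeR, 3 passed an unadjusted p under 0.05, Flna, Scarb1 and Tgfbr1, all lower in the adventitia, and DESeq2 called 0 and limma voom 1, Flna. That is 18.8% of the list at the unadjusted threshold, against 22.4% of all tested genes. Ranges did not overlap for Fyn, Abl1, Flna, Scarb1, Tgfbr1 and Pdgfrb, lower in the adventitia, and for Tgfbr2, higher. That is 6 lower and 1 higher of the 16 tested, against 14.1% and 26.4% of all tested genes. Flna encodes the actin crosslinker filamin A and was at 214, 142 and 147 CPM in adventitia libraries, against 378 and 430 CPM in intima libraries (difference -1.52 on the log2 scale, SE 0.40; edgeR adjusted p = 0.0900). Cd36, a fatty acid and lipoprotein receptor, was the most abundant of this list, at 931, 525 and 625 CPM in adventitia libraries, against 677 and 843 CPM in intima libraries (difference -0.38 on the log2 scale, SE 0.40; edgeR adjusted p = 0.643).

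The clathrin coat, the other main coat of the plasma membrane, was well detected in both groups. Its 15 listed genes were all tested, with a median log2 difference of 0.46 and 0 called in edgeR; 3 passed an unadjusted p under 0.05, Epn2 and Necap2 lower and Ap2a2 higher in the adventitia, and DESeq2 called Ap2a2 and Epn2 and limma voom 0. That is 20.0% of the list at the unadjusted threshold, against 22.4% of all tested genes. Their summed level was 4941, 4720 and 3960 CPM in adventitia libraries, against 3490 and 2739 CPM in intima libraries. The adventitia sums thus lay above the intima sums on raw CPM, which leaves out the TMM factors. Those factors were 0.998 for adventitia replicate 3 and 0.856 for intima replicate 1. Divided by them, the sum of intima replicate 1 lies above that of adventitia replicate 3. The sums of the groups thus overlap on the TMM scale. Gene by gene, 4 lay lower in the adventitia without overlap and 4 higher, against 14.1% and 26.4% of all tested genes. Dab2, a clathrin adaptor, was the most abundant, at 1270, 1213 and 1164 CPM in adventitia libraries, against 1253 and 1013 CPM in intima libraries (difference -0.15 on the log2 scale, SE 0.40; edgeR adjusted p = 0.879). The 7 caveola genes summed to 157, 131 and 169 CPM in adventitia libraries, against 660 and 1289 CPM in intima libraries, so they were below the clathrin list in every library.

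Cav1 (ENSMUSG00000007655) and Cav2 (ENSMUSG00000000058) are neighbours on the plus strand of chromosome 6 in GRCm38, at 17306335 to 17341452 and 17281185 to 17289115, with 17.2 kb between the end of Cav2 and the start of Cav1. Within 500 kb to either side of Cav1, 21 other genes are listed, of which 5 were tested. Of these 0 were called in edgeR, against 0.671% of all tested genes, and 0 by DESeq2 or limma voom. Tes alone passed an unadjusted p under 0.05, lower in the adventitia, 20.0% of the 5 against 22.4% of all tested genes. Tes, which encodes the focal adhesion protein testin and is the nearest tested gene on the Cav2 side, was at 9.90, 23.8 and 59.8 CPM in adventitia libraries, against 77.7 and 134 CPM in intima libraries (difference -1.92 on the log2 scale, SE 0.76; edgeR adjusted p = 0.168). Its order across the 5 libraries was that of Cav2. Met, the receptor of hepatocyte growth factor on the other side of Cav1, stayed at or below 2.54 CPM in each library (difference 0.78 on the log2 scale, SE 1.26; edgeR adjusted p = 0.783).

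Of the farther genes, Capza2, which encodes an actin capping subunit, was at 911 to 1578 CPM in adventitia libraries, against 1563 and 1541 CPM in intima libraries (difference -0.59 on the log2 scale, SE 0.43; edgeR adjusted p = 0.471). St7 was at 1.52 to 16.2 CPM in adventitia libraries, against 0.802 and 4.76 CPM in intima libraries (difference 1.81 on the log2 scale, SE 1.76; edgeR adjusted p = 0.609). Tfec, a transcription factor gene of the MITF family, was at 5.58 to 18.8 CPM in adventitia libraries, and had 42.6 CPM in intima replicate 1 but no read in intima replicate 2, which allows up to 0.144 CPM (difference -0.92 on the log2 scale, SE 1.78; edgeR adjusted p = 0.826). The predicted gene Gm15581 spans Cav2 and Cav1 on the minus strand and had 9, 7 and 3 reads in the adventitia and 0 in both intima libraries. No strand setting is given in the sources used here, so reads of such an antisense gene and of Cav1 or Cav2 cannot be told apart. Cavin2 (chromosome 1, 51289126 to 51302960), Cavin1 (chromosome 11, 100956733 to 100970887), Pacsin2 (chromosome 15, 83375607 to 83464606), Ehd2 (chromosome 7, 15946977 to 15967567) and Cavin3 (chromosome 7, 105480607 to 105482197) lie apart from this pair.

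**Figure D4:**
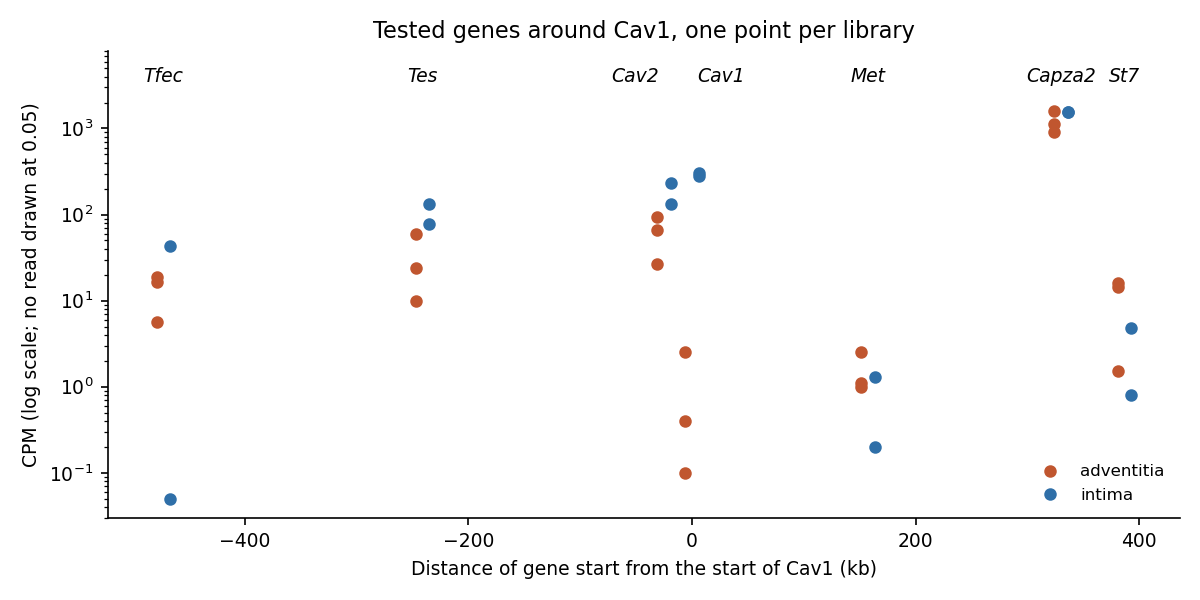
CPM (log axis, with no read drawn at 0.05) of each tested gene around Cav1 against the distance of its start from that of Cav1 in kb, with a point for each library and the groups drawn slightly apart. Cav1 is at 2.54 CPM or less in the adventitia libraries, next to Cav2 at 26.9 to 94.7 CPM, and Capza2 is at 911 CPM or more in all 5 libraries.

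Likeness of pattern was measured as the root mean square difference of log2(TMM CPM + 0.5), centred for each gene, over the 5 libraries and 5472 candidate genes with a mean log2 CPM of at least 4. The genes nearest to Cav1 were Apoe (0.69), Cytl1 (0.71), Clu (0.74), Tm4sf1 (1.16) and Pecam1 (1.24), where the median candidate was at 3.96. Apoe differs between the groups by genotype. Cytl1, a small secreted protein, was at 3.04, 2.18 and 0.796 CPM in adventitia libraries, against 638 and 910 CPM in intima libraries. Tm4sf1, a tetraspanin-like surface protein of endothelial and tumour cells, was at 13.7, 3.97 and 31.6 CPM in adventitia libraries, against 1405 and 1217 CPM in intima libraries. Of the other coat genes, Cavin2 was at 1.14 from Cav1, closer than Tm4sf1, while Cavin1 was at 2.47 and Cav2 at 3.36.

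The genes nearest to Cavin1 were others: Nkiras2 (0.29), Pqlc1 (0.30), Sod3 (0.53), Bgn (0.54) and Drg2 (0.57), with the median candidate at 1.86. Nkiras2, an inhibitor of NF-kappa-B signalling, was at 17.0, 3.18 and 12.7 CPM in adventitia libraries, against 48.0 and 133 CPM in intima libraries. Like Cavin1 it was lowest in adventitia replicate 2 and highest in intima replicate 2, and it lies on the same chromosome, at 100619244 to 100627607. Bgn, the matrix proteoglycan biglycan, was at 89.8, 46.6 and 117 CPM in adventitia libraries, against 225 and 700 CPM in intima libraries. From Cavin1, Ehd2 was at 1.30, Cav2 at 1.32, Pacsin2 at 1.46, Cavin3 at 1.55 and Cav1 at 2.47, so Cav1 was farther from Cavin1 than these. These distances describe 5 libraries and carry no test.

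Endothelial cells are rich in caveolae, and most of their listed markers were lower in the adventitia libraries. Of 15 listed endothelial genes 13 were tested, and 5 were called lower in the adventitia and 0 higher, where 0.522% of all tested genes were called lower and 0.149% higher. The ranges of 9 tested genes lay lower in the adventitia without overlap and those of 2 higher, against 14.1% and 26.4% of all tested genes, and the median log2 difference was -3.91. Emcn, an endothelial sialomucin, was at 2.03, 0.397 and 0.398 CPM in adventitia libraries, against 134 and 71.8 CPM in intima libraries (difference -7.21 on the log2 scale, SE 0.98; edgeR adjusted p = 0.00694). Ptprb, the vascular receptor tyrosine phosphatase, stood at -6.98 on that scale (SE 0.66, edgeR adjusted p = 6.14e-04), and Esam, a junction protein, -6.69 (SE 1.10, adjusted p = 0.0191 in edgeR). Pecam1, which encodes CD31, had -6.64 (SE 0.75, adjusted p = 0.00220 in edgeR), and Vwf, the von Willebrand factor gene, -3.23 (SE 0.59, adjusted p = 0.0344 in edgeR). Without adventitia replicate 1, Emcn, Esam and Pecam1 were not called (adjusted p = 0.0501, 0.165 and 0.118 in edgeR). Esam was not called without adventitia replicate 2 or 3 either (adjusted p = 0.0720 and 0.101 in edgeR). The endothelial list had 1, 3 and 3 calls without adventitia replicates 1, 2 and 3. Further genes of the 5 were thus lost in each of these fits.

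The endothelial list summed to 66.7, 51.9 and 37.5 CPM in adventitia libraries, against 1031 and 1069 CPM in intima libraries. The members that were not called fell into several patterns. Cdh5, which encodes VE-cadherin, was at 1.78, 8.54 and 3.58 CPM in adventitia libraries, against 89.5 and 28.4 CPM in intima libraries. Tek, Tie1 and Egfl7 were likewise lower in each adventitia library than in either intima library, with 22.0 and 79.1 CPM for Tek, 15.9 and 56.6 CPM for Tie1 and 68.3 and 120 CPM for Egfl7 in the intima. Kdr, Flt1 and Robo4 were near 0 in the intima libraries and higher in the adventitia libraries. Kdr was at 1.27, 1.89 and 1.79 CPM in adventitia libraries, against 0.200 and 0.0481 CPM in intima libraries. Flt1 was at 1.69 to 2.54 CPM in adventitia libraries, against 0.267 and 0.240 CPM in intima libraries, and Robo4 had 3, 5 and 8 reads in adventitia libraries, against 2 and 0 in intima libraries. Cldn5 had 2, 1 and 4 reads in adventitia libraries, against 0 and 261 in intima libraries, so the intima libraries disagreed on it. Erg and Sox17 overlapped between the groups and had no read in intima replicate 2. Set against the endothelial sum, Cav1 amounted to 3.80%, 0.191% and 1.06% in the adventitia and 29.5% and 26.1% in the intima. Cav2 amounted to 40.3%, 129% and 253% of it in the adventitia and 12.8% and 21.7% in the intima. The ratio to endothelial markers was thus lower in the adventitia for Cav1 and higher for Cav2. It was also lower for Cavin2, and higher for Cavin3, Ehd2 and Pacsin2. Cavin1 overlapped between the groups, at 72.6%, 27.0% and 93.1% in the adventitia and 12.1% and 52.1% in the intima. The part of endothelial RNA in the coat gene levels was not tested.

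Smooth muscle genes, which include contractile proteins, summed to 72.1, 56.2 and 45.8 CPM in adventitia libraries, against 311 and 255.9 CPM in intima libraries; of 8 tested, 1 was called lower in the adventitia and 0 higher, where 0.522% and 0.149% of all tested genes were. Acta2 and Tagln lay lower in the adventitia without overlap and Myh11 higher, where 14.1% and 26.4% of all tested genes did so. The other 5 tested genes overlapped between the groups. The called gene was Tagln, which encodes the actin-binding protein transgelin (difference -8.09 on the log2 scale, SE 1.10; edgeR adjusted p = 0.00697, and 0.118 without adventitia replicate 1). The highest mean over the 5 libraries was that of Cald1, caldesmon, at 10.1, 11.2 and 29.9 CPM in adventitia libraries, against 16.6 and 143 CPM in intima libraries (edgeR adjusted p = 0.165), although Mylk had a higher mean in the adventitia and Acta2 in the intima. The contractile markers Myh11 and Cnn1 stayed at or below 1.39 CPM throughout. The part of smooth muscle RNA in the coat gene levels was not tested.

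Fibroblast genes went the other way in sum, at 807, 717 and 1595 CPM in adventitia libraries, against 336 and 419 CPM in intima libraries, with 1 of 12 tested called higher in the adventitia and 0 lower, where 0.149% and 0.522% of all tested genes were. It was Lum, the matrix proteoglycan lumican (difference 9.27 on the log2 scale, SE 1.47; edgeR adjusted p = 0.0148; 0.174 and 0.139 without adventitia replicates 1 and 3). Dcn, decorin, had the highest mean over the 5 libraries and in the adventitia, at 341, 325 and 702 CPM in adventitia libraries, against 107 and 15.4 CPM in intima libraries (edgeR adjusted p = 0.113). In the intima Col3a1 had a higher mean than Dcn, and Lox at 98.6 CPM led in replicate 2. Lox was lower in the adventitia without overlap, at 8.63 CPM or less, against 19.0 and 98.6 CPM in intima libraries. Its log2 difference was -3.79 (SE 1.13; edgeR adjusted p = 0.111), and DESeq2 called it. Mfap5 had the only other negative difference (-0.92), with overlap. The ranges of 6 fibroblast genes lay higher in the adventitia without overlap and that of 1 lower, against 26.4% and 14.1% of all tested genes. Pericyte genes summed to 32.2 to 33.5 CPM in adventitia libraries, against 3.27 and 10.3 CPM in intima libraries, with 0 of 7 tested called in edgeR, 5 at an unadjusted p under 0.05, all higher in the adventitia (Rgs5, Abcc9, Notch3, Ndufa4l2 and Steap4), and 3 each by DESeq2 and limma voom. Over all 13408 tested genes 22.4% passed that unadjusted threshold, 1916 of them higher in the adventitia, and DESeq2 called 1225 and limma voom 839. The pericyte gene with the highest mean in the adventitia was Steap4, a metalloreductase, at 8.37, 13.3 and 13.2 CPM in the adventitia, with no read in the intima, which allows up to 0.200 and 0.144 CPM. The part of fibroblast and pericyte RNA in the coat gene levels was not tested either.

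Adipocyte genes summed to 103, 142 and 82.9 CPM in adventitia libraries, against 70.3 and 142 CPM in intima libraries. Of 5 tested, 0 were called in edgeR, against 0.671% of all tested genes, and 0 by DESeq2 or limma voom. At an unadjusted p under 0.05, 1 passed (Cfd, higher in the adventitia), 20.0% of the tested list against 22.4% of all tested genes. The adipocyte hormone gene Adipoq had a single read in all 5 libraries together, and the most abundant gene of the list was Pnpla2, a lipase of many cell types (edgeR adjusted p = 0.946). Of the 16 macrophage genes 0 were called in edgeR. At an unadjusted p under 0.05, 4 of the 16 passed, where 22.4% of all tested genes did. Adgre1, Ptprc and Cx3cr1 were lower in the adventitia, and Itgam was higher. DESeq2 and limma voom each called 1 macrophage gene, Cx3cr1, the fractalkine receptor. Lyz2, lysozyme of myeloid cells, was the most abundant, at 9302, 7835 and 13334 CPM in adventitia libraries, against 10147 and 5186 CPM in intima libraries (difference 0.15 on the log2 scale, SE 0.53; edgeR adjusted p = 0.908).

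**Figure D5:**
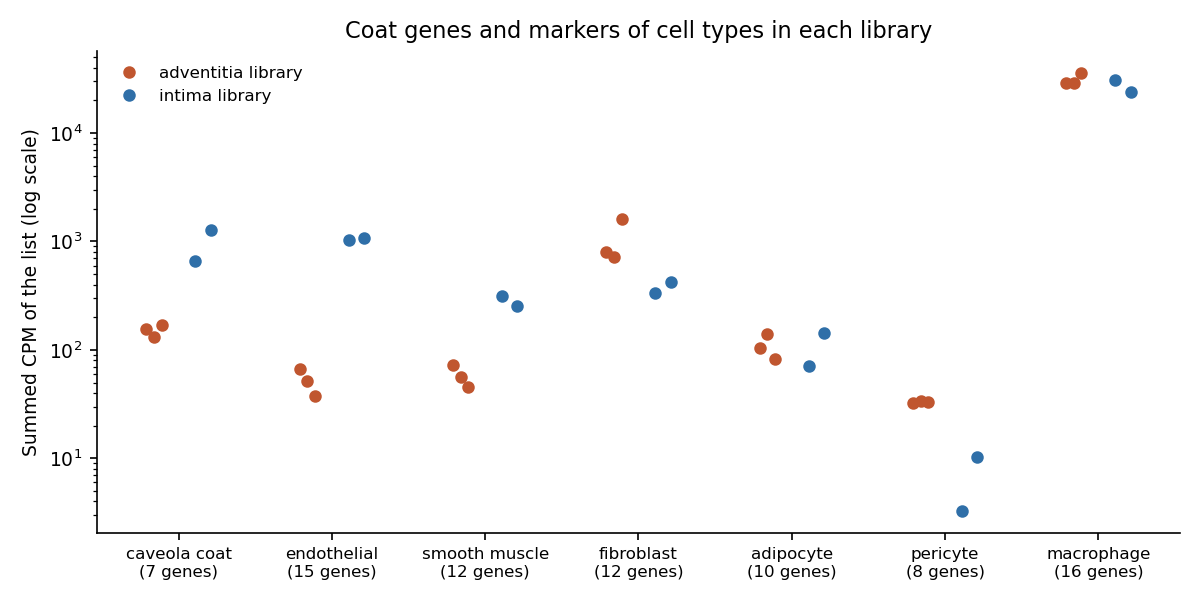
Summed CPM (log axis) of the coat and neck genes and of each list of cell type markers, with a point for each library, adventitia left and intima right. The endothelial sum is 37.5 to 66.7 CPM in adventitia libraries, against 1031 and 1069 CPM in intima libraries, and the macrophage sum is 23892 CPM or more in every library.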

How the data were processed

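Poly-A RNA of sorted cells was copied with the SMARTer Ultra Low kit, amplified over 12 cycles and sequenced as single reads of 50 bases, per the labels' protocols. STAR 2.0.4b, featureCounts 1.4.5, Subread and GRCm38 stand in the submitters' processing notes; annotation release and strand setting are not given in the sources used here. The deposited counts are whole reads per Ensembl gene. The CPM and RPKM that the authors deposited equal those computed from counts, library totals and gene length (0 mismatches at a tolerance of 1e-06). Levels are on these scales. Symbols were found for 40254 of 41388 IDs in a table of Ensembl gene names.

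Differences came from edgeR 4.0.16 (quasi-likelihood test, R 4.3.3) on counts, with filterByExpr (minimum count 10, minimum total 15), TMM factors, no covariates and Benjamini-Hochberg adjustment over all 13408 tested genes; "called" means an adjusted p under 0.05. The SE is the log2 difference over the square root of F. The fit was tested on simulated data, with 50 genes changed at each size. It recovered 8% of 4-fold changes, 56% of 16-fold changes and 86% each of 64-fold and 256-fold changes. False calls were 2 of 120. The simulated counts followed the model that the fit assumes, with spreads estimated from these data and changes only in genes above a minimum level. They do not measure how often calls are false in the real counts. A list with 0 calls can therefore hold differences that the fit missed. Intervals are exact at 95% and cover counting error only, since amplified reads lacking molecular identifiers can be copies of the same molecule; a floor is 3 reads. Nothing says that the libraries came from separate cultures or preparations, so the spread behind the p-values may be technical.

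The members and lists were chosen with earlier results of these data known. Named genes are all 7 members; up to 4 called genes of each list and direction; the most abundant gene of each list; tested neighbours of Cav1; and the 5 genes nearest in pattern to Cav1 and Cavin1, predicted genes left out. Other genes were named after their values were seen. Upstream sequences are from RefSeq (GRCm38.p6), which held 6 of the 7 genes, all but Cavin3. Alternatives were other scalings and filters, DESeq2 1.42.0, limma 3.58.1 voom, counts thinned to the smallest library, a replicate block, and leaving out single libraries.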

Additional observations from a re-analysis of the deposited data

How the results depend on the processing

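Depth limits Cav1, Cavin2 and Cavin3 in the adventitia, where they rest on 1 to 26 reads a library. The count of called coat genes, a description only, was 3, with 2 to 3 in the other scalings, filters and tools. It was 1 when any 1 adventitia library was left out. The count over all genes was 90 and moved to 386 with no filter beyond 1 read, 396 with 1 CPM in every library of a group, 1225 with DESeq2 and 839 with limma voom, and ran from 10 to 389 with single libraries left out; the cause was not tested. Endothelial calls were 5, with 8 without the filter, 9 with DESeq2 and 1 to 6 with single libraries left out. Smooth muscle calls were 1, with 2 without the filter, with 1 CPM, with DESeq2 and with limma voom, and 0 to 2 with single libraries left out. Fibroblast calls were 1, with 2 without the filter, 6 with DESeq2, 5 with limma voom and 0 to 3 with single libraries left out. Pericyte calls were 0, with 1 without the filter, 2 with 1 CPM, 3 with DESeq2 and 3 with limma voom. Macrophage calls were 0, with 2 without the filter, 1 each with 1 CPM, DESeq2 and limma voom, and 0 to 2 with single libraries left out. Caveola partners had 1 call with limma voom and clathrin coat genes 2 with DESeq2. Relatives, adipocyte genes and neighbours of Cav1 had 0 under every setting run.

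The replicate numbers are shared by name only: deviations of same-numbered libraries correlated at 0.035 and 0.0057. With the replicate number as a block the calls were 183 over all genes, 3 coat genes, 5 endothelial, 2 smooth muscle, 2 fibroblast and 1 macrophage gene; Pnpla2 turned to 0.15, Lyz2 to -0.051 and Tfec to 2.45.

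Differences near 0 changed sign. With upper-quartile scaling Ehd4 was at 0.16, Cd36 at 0.12, Dab2 at 0.33 and Pnpla2 at 0.37. With library size alone Dab2 was at 0.10 and Pnpla2 at 0.097, and with 1 CPM they were at 0.017 and 0.062. Pnpla2 was at 0.045 with RLE factors and 0.045 with DESeq2. In thinned counts Ehd4 was at 0.035, Cd36 at 0.033, Dab2 at 0.23 and Pnpla2 at 0.37. Lyz2 was at -0.061 without the filter and Tfec at 3.35 with limma voom. With single libraries left out, Cavin3 ran from -2.27 to 0.58, Pacsin2 from -1.36 to 0.20, Dab2 from -0.45 to 0.24, Pnpla2 from -0.43 to 0.21, Lyz2 from -0.39 to 0.96 and Tfec from -2.00 to 10.28.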
